A study of Caenorhabditis elegans with 2 samples.

Results

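The spliced leader RNA genes of Caenorhabditis elegans were examined in genome-wide maps of the transcription factor HLH-12. The genes were taken by name from the Ensembl annotation of the WBcel235 assembly, which carries the same coordinates as build ce11 used in the peak lists: every gene whose name begins with sls-1. (SL1, 12 genes) or sls-2. (SL2, 18 genes). These were 30 of the 46890 annotated nuclear genes. The maps were ChIP-seq peak lists from whole animals of strain OP538, genotype unc-119(tm4063) III; wgIs538, a transgenic line that stably expresses HLH-12 with GFP and FLAG at its C-terminus. The animals were hermaphrodites at the young adult stage, 64 hours after synchronization by L1 starvation that followed bleaching. Chromatin was sheared by sonication and recovered with an antibody against GFP in 2 biological replicates, which carry the same alleles and form the study's only group. Libraries of input DNA or of animals lacking the tag were not analysed here, so no value below was compared with them. How the authors scaled the signal is not stated, so whether it was already set against a control is unknown. A peak from whole animals does not say in which cells, or in how many, the protein was bound.

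Spliced leader RNAs are short nuclear RNAs that donate their 5′ end, the leader, to other transcripts by trans-splicing, which gives many nematode mRNAs a common start. SL1 is used mainly on the first genes of transcription units and SL2 mainly on downstream genes of operons. The genes are transcribed by RNA polymerase II from snRNA-type promoters bound by the SNAPc complex, and the RNAs carry an Sm site on which Sm proteins assemble. SL1 genes lie in a tandem repeat together with 5S rRNA genes, and SL2 genes are dispersed. HLH-12 belongs to the basic helix-loop-helix factors, a class known to bind the E-box, CANNTG.

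The RNA genes below are shown, 5′ to 3′ on the gene's own strand, because they carry the leader and because pairs of near copies among them differed in the peak lists. The letters are those of the RefSeq genome of WBcel235. The first run of capitals is the leader and the second, where present, is the Sm site AATTTTTGG or its shorter form AATTTTGG; the shorter form was added to the search after the sequences were seen. The SL1 gene shown is the minus-strand copy at chrV:17120694-17120791. The SL2 genes are sls-2.1 at chrII:5844865-5844974 (plus strand), sls-2.2 at chrII:5543598-5543707 (plus), sls-2.3 at chrII:5544164-5544273 (minus), sls-2.8 at chrIII:12250465-12250575 (plus), sls-2.10 at chrIV:9130721-9130829 (minus), sls-2.11 at chrIV:9140415-9140523 (plus) and sls-2.12 at chrIV:5261913-5262022 (plus).
sls-1.10: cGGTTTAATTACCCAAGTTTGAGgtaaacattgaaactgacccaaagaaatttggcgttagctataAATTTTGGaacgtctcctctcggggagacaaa
sls-2.1: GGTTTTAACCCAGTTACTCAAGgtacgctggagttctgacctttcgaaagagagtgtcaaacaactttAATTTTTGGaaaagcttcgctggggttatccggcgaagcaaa
sls-2.2: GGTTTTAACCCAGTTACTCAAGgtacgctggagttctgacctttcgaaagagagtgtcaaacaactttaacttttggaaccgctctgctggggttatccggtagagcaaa
sls-2.3: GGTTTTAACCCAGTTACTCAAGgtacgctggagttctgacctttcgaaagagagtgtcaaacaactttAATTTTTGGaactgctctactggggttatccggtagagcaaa
sls-2.8: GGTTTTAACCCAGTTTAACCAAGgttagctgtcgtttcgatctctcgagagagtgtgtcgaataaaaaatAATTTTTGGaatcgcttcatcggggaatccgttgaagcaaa
sls-2.10: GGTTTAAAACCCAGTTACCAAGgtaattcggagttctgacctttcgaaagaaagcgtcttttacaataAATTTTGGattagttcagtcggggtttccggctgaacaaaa
sls-2.11: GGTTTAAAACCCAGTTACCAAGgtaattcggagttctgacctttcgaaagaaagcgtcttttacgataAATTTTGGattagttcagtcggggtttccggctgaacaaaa
sls-2.12: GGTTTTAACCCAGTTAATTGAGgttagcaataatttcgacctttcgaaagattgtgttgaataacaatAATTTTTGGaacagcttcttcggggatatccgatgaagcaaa

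The leader of sls-1.10 begins at its base 2, since the annotated gene starts with an extra base. The SL2 genes held 11 distinct leaders of 21 to 23 nucleotides, and sls-2.1, sls-2.2 and sls-2.3 share theirs. The 100 bases upstream of some of these genes are shown next, 5′ to 3′ on the gene's strand and ending at the base before the gene, because the snRNA-type promoter lies there. Capitals mark matches to the 8-base words that were most shared among SL2 genes, described further on. The windows are chrV:17120792-17120891 (minus strand) for sls-1.10, chrII:5543498-5543597 (plus) for sls-2.2, chrII:5544274-5544373 (minus) for sls-2.3, chrIII:12250365-12250464 (plus) for sls-2.8, chrIII:11090910-11091009 (plus) for sls-2.15, chrIII:11090524-11090623 (minus) for sls-2.14, chrIV:9130830-9130929 (minus) for sls-2.10, chrIV:9140315-9140414 (plus) for sls-2.11 and chrIV:5261813-5261912 (plus) for sls-2.12.
sls-1.10: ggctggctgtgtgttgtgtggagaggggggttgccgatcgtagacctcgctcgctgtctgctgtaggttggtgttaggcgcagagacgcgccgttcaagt
sls-2.2: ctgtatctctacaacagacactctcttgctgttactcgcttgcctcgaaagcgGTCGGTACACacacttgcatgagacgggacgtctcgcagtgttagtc
sls-2.3: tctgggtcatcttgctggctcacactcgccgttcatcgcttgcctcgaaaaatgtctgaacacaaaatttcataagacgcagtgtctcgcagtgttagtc
sls-2.8: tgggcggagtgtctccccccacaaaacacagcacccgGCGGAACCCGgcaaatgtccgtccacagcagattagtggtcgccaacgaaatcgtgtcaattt
sls-2.15: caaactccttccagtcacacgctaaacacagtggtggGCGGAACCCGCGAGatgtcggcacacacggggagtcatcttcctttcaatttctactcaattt
sls-2.14: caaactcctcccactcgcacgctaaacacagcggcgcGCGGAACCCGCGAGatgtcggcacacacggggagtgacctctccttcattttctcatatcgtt
sls-2.10: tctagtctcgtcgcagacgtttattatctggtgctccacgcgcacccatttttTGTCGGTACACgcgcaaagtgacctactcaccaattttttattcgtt
sls-2.11: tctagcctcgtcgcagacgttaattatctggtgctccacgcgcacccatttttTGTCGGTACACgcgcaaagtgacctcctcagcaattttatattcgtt
sls-2.12: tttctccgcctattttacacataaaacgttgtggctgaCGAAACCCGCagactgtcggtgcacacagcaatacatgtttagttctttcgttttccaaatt

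No SL1 gene, and 11 of the 18 SL2 genes, had an entry in the relaxed list of the pooled replicates, and 4 of the 11 passed the authors' reproducibility filter. The peaks were read from 4 lists of the authors. The pooled list held 6676 entries made from both replicates together at a relaxed threshold, the IDR list held the 245 of highest reproducibility, and the single-replicate lists held 19792 entries for replicate 1 and 22570 for replicate 2. The pooled and the single-replicate lists were inputs for the reproducibility filter and hold background as well as peaks, so an entry there is not by itself a called peak. The authors' q-values show this: the median −log10 q was 0.0796 in the pooled list, and the IDR list began at 1.04. At the 4 SL2 genes of the IDR list the −log10 q was 1.05 to 1.13 (q from 0.0746 to 0.0894), and at the other 7 with a pooled entry it was 0.0794 to 0.911 (q from 0.123 to 0.833). Entries of all 4 lists are called peaks below for short. A gene was counted where a peak's summit lay within 200 bp of its nearest base. Read depth is unknown, because the files give none. The signal of a peak is the authors' value, and its scale differs between the pooled and the single-replicate lists.

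By this rule 0 of 12 SL1 genes had a summit in the pooled list, 0 in the IDR list, 0 in replicate 1 and 0 in replicate 2. Of the 18 SL2 genes, 11 (61.1%) had a summit in the pooled list, 4 (22.2%) in the IDR list, 10 (55.6%) in replicate 1 and 11 (61.1%) in replicate 2. The share of all nuclear genes with a summit was 12.1% in the pooled list, 0.998% in the IDR list, 26.6% in replicate 1 and 28.8% in replicate 2. Among the 2766 nuclear genes of 68 to 114 bp, the length range of the spliced leader genes, the shares were 26.6%, 8.93%, 34.2% and 32.6% in the same order. Thus the SL2 share lay above both backgrounds in all 4 lists and the SL1 share below them. A summit in both replicate lists was found at 9 of 18 SL2 genes and at 0 SL1 genes, against 15.5% of all nuclear genes. The difference between SL1 and SL2 was not tested, since SL1 copies lie in 1 repeat and are not independent of each other.

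Other short noncoding genes were read in the same way. The 612 nuclear tRNA genes, which RNA polymerase III transcribes, had a summit at 371 genes (60.6%) in the pooled list and 133 (21.7%) in the IDR list, close to the SL2 shares. The other 99 snRNA genes, which share the promoter type of the SL genes for the most part, had one at 29 (29.3%) and 8 (8.08%). Of the 16 5S rRNA genes, 1 (6.25%) had a pooled summit and 0 an IDR summit. The median pooled signal was 45.2 over the 11 SL2 genes, with a range of 30.5 to 95.9, 37.7 over the other snRNA genes with a summit, 49.4 over the tRNA genes with a summit and 32.3 over all genes with a summit. In share and in signal the SL2 genes were closer to tRNA genes than to the other snRNA genes. These differences between classes were not tested.

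**Figure D1:**
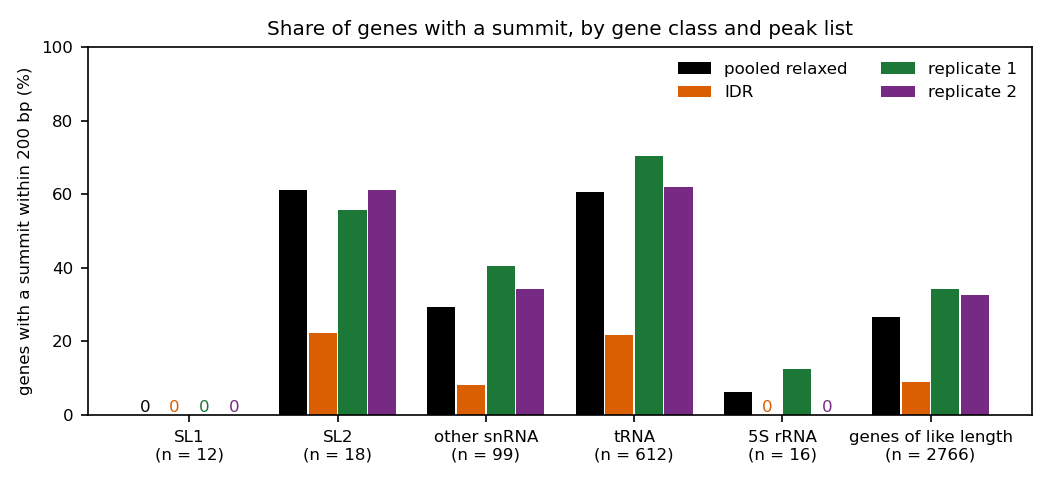
Percent of genes (vertical axis) with a peak summit within 200 bp, for SL1, SL2, other snRNA, tRNA and 5S rRNA genes and for the 2766 nuclear genes of like length, 1 bar for each of the 4 peak lists. SL2 bars reach 61.1% in the pooled list and 22.2% in the IDR list, near the 60.6% and 21.7% of tRNA genes, and SL1 bars are at 0 in all 4 lists.

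The SL2 genes with an IDR peak were sls-2.4, sls-2.8, sls-2.2 and sls-2.1, and these were also the SL2 genes of highest pooled signal. Each had the same rank by signal in both lists (47, 109, 150 and 241), so these are not 2 separate traits. The strongest was sls-2.4 (WBGene00004836, I:4172206-4172315, plus strand, between coding genes). Its peak spanned I:4172154-4172589 and had a pooled signal of 95.9, rank 47 of 6676. Its signal was 47.4 in replicate 1 and 49.7 in replicate 2, a mean of 48.6 ± 1.65 (SD, n = 2). The replicates placed the summit 4 bp apart, the smallest gap among SL2 genes.

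The peak at sls-2.8 (III:12250485-12250920) had a pooled signal of 74.2, rank 109. Replicate 1 gave 55.9 and replicate 2 gave 26.7 (mean 41.3 ± 20.6, SD, n = 2). Replicate 1 was higher there, and the summits also differed in place, at 281 and 100 bp from the 5′ end. This gene lies 195 bp from the 5′ end of the coding gene Y75B8A.23. Of the other 3 genes of the IDR list the nearest coding 5′ ends were 617 bp away for sls-2.4 (egg-5), 1266 bp for sls-2.2 (ins-13, an insulin-like peptide gene) and 676 bp for sls-2.1 (ZK1248.17).

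At sls-2.2 the pooled signal was 68.4, rank 150, from a peak at II:5543455-5543890, with 39.6 in replicate 1 and 28.8 in replicate 2 (mean 34.2 ± 7.70, SD, n = 2). At sls-2.1 it was 57.7, rank 241, from a peak at II:5844771-5845206. The replicates gave 31.9 and 29.4 there (mean 30.7 ± 1.71, SD, n = 2). The latter peak lay just inside the IDR list, whose lowest nuclear pooled signal was 57.3.

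The other 7 SL2 genes with a pooled summit had signals from 30.5 to 49.2 and were not in the IDR list. At sls-2.15, in an intron of W09D6.5 on the same strand, the pooled signal was 49.2, rank 396, with 32.2 and 18.4 in replicates 1 and 2 (mean 25.3 ± 9.79, SD, n = 2). At sls-2.16, in an intron of the glutamate receptor gene glr-2 on the opposite strand, it was 45.2, rank 519, with 19.4 and 22.7 (mean 21.1 ± 2.32, SD, n = 2). The same glr-2 gene hosts sls-2.5 and sls-2.18, so 3 SL2 genes with a peak each lay within it. Those at sls-2.5 and sls-2.18 were weak, with pooled signals of 33.97 and 30.5, and sls-2.5 had no summit in replicate 1 and a signal of 19.9 in replicate 2. The replicates gave 16.9 and 13.7 at sls-2.18 (mean 15.3 ± 2.26, SD, n = 2), the lowest mean of an SL2 gene.

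Of the remaining genes, sls-2.10 had a pooled signal of 36.6 and nearly equal replicate signals of 17.5 and 17.7 (mean 17.6 ± 0.110, SD, n = 2). The signal at sls-2.7 was 39.96 in the pooled list and 29.2 in replicate 1, and the nearest replicate 2 summit lay 218 bp away, just outside the reach. At sls-2.9 it was 39.9 in the pooled list, 26.9 in replicate 1 and 11.4 in replicate 2 (mean 19.2 ± 10.9, SD, n = 2). The pooled summit there lay 118 bp upstream of sls-2.9 but 14 bp from a tRNA gene, and the replicate summits were 346 bp apart. This was the SL2 gene whose peak lay nearer to another small RNA gene, and without it the pooled count was 10 of 18. No peak was shared between SL2 genes.

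**Figure D2:**
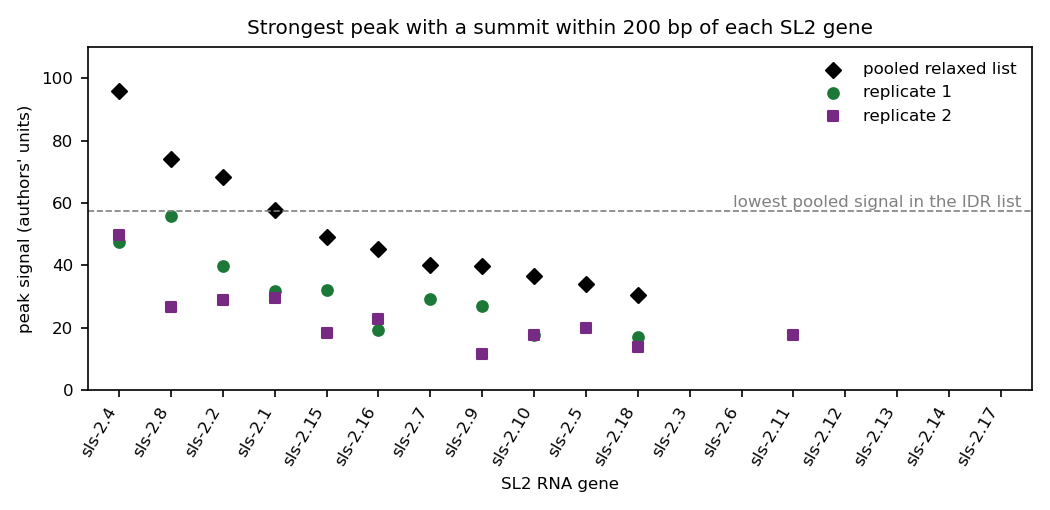
Authors' signal value (vertical axis) of the strongest peak with a summit within 200 bp of each SL2 gene (horizontal axis), in the pooled list and in replicates 1 and 2, with the lowest pooled signal of the IDR list, 57.3, as a line. The genes sls-2.4, sls-2.8, sls-2.2 and sls-2.1 stand above the line, and the replicates lie farthest apart at sls-2.8 (55.9 and 26.7).

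Over the 9 SL2 genes with a summit in both replicates, replicate 1 was higher at 6, and the ratio of replicate 1 to replicate 2 had a median of 1.23 and a range of 0.856 to 2.35. The gene means ran from 15.3 to 48.6. Their SD among genes was 11.4, against a median SD between replicates of 2.32, so genes differed more than replicates did at most of them. The order of the middle genes was not resolved: sls-2.15 and sls-2.16, at 25.3 ± 9.79 and 21.1 ± 2.32 (SD, n = 2), differed by less than the replicate spread of the former. The rank correlation of the replicate signals was 0.683 (Spearman's rho over 9 genes, which share both libraries), given as a description.

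The 7 SL2 genes with no pooled summit were sls-2.3, sls-2.6, sls-2.11, sls-2.12, sls-2.13, sls-2.14 and sls-2.17. The nearest pooled summit lay 290 bp away for sls-2.3 and 458 bp away for sls-2.14, both on the downstream side. The former belonged to a second, weaker peak near sls-2.2 with a signal of 37.9. The latter had a signal of 52.8, rank 311, which was higher than the 49.2 at the neighbouring sls-2.15, and the 200 bp reach did not give it to sls-2.14. The nearest pooled summit was 2726 bp away for sls-2.6, 3045 bp for sls-2.12, 5469 bp for sls-2.11, 6074 bp for sls-2.17 and 16180 bp for sls-2.13. Of the 7, sls-2.11, in an intron of daf-10, had a summit in replicate 2, with a signal of 17.7 and 272 bp from its 5′ end. The genes sls-2.12, sls-2.13 and sls-2.17 are those nearest to coding genes for major sperm proteins (msp-19, msp-57 and msp-65), whose 5′ ends lay 1324, 953 and 845 bp away.

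SL2 genes lie on 4 chromosomes, with few genes on each. On chromosome I a pooled summit was found at 3 of 4 genes, on chromosome II at 2 of 3, on chromosome III at 5 of 6 and on chromosome IV at 1 of 5. The IDR list held 1, 2, 1 and 0 of these genes in the same order. Of the SL2 genes in introns 4 of 7 had a pooled summit and 0 an IDR summit, and of those between coding genes 7 of 11 had a pooled and 4 an IDR summit. With so few genes per chromosome or context no test was made. No share of all genes by chromosome or context is given, so no difference among them is read from these counts.

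The summits lay mostly within or downstream of the RNA gene rather than upstream of its 5′ end. In the pooled list 1 SL2 summit was upstream of the 5′ end, 4 were inside the gene and 6 (54.5%) were downstream of its 3′ end, with a median position of +124 bp from the 5′ end of genes 107 to 114 bp long. The median was +105 bp in replicate 1 and +146 bp in replicate 2, where 8 of 11 summits (72.7%) were downstream. The other snRNA genes had a pooled median of +157 bp, with 51.7% downstream, and tRNA genes a median of +42 bp, with 29.4% downstream. In the IDR list the SL2 median was +145 bp, with 3 of 4 summits downstream. The other snRNA genes there differed from SL2, with a median of +61 bp, 6 of 8 summits inside and 2 downstream. The tRNA genes there had a median of +41 bp, with 22.6% downstream. Among nuclear genes in the length range of the spliced leader genes, 736 had a pooled summit. It lay upstream at 29.1% of them, inside at 42.4% and downstream at 28.5%, with a median of +39.5 bp. These differences in position were not tested. Replicate summits of the same SL2 gene lay 4 to 346 bp apart, with a median of 83 bp. At sls-2.8 and sls-2.10, for example, 1 replicate placed the summit inside the gene and the other downstream of it. Nearly all pooled peaks had 1 fixed width of 436 bp.

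**Figure D3:**
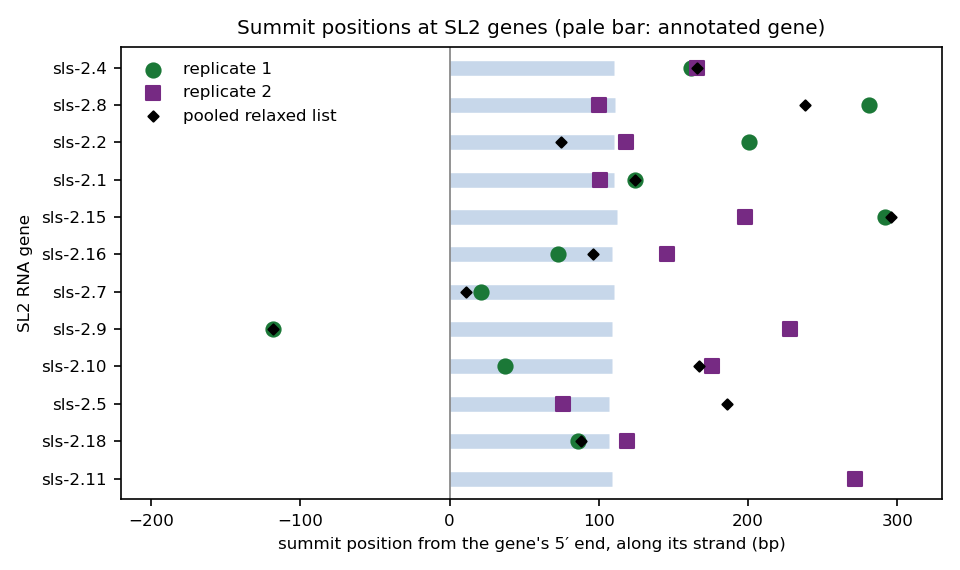
Position of the peak summit in bp from the 5′ end of each SL2 gene along its strand (horizontal axis), for replicate 1, replicate 2 and the pooled list, with the gene body as a pale bar and 1 gene per line. Most points lie inside the bar or to its right, the median pooled position is +124 bp, and sls-2.9 alone has a pooled summit upstream.

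Some near copies of 1 sequence differed in the pooled list. The 18 SL2 genes had 18 distinct sequences, and identity over their 153 pairs ran from 66.1% to 99.1%, with a median of 76.1%. The most similar pair was sls-2.10 and sls-2.11 (99.1%), of which the former had a pooled signal of 36.6 and the latter no pooled summit. That pooled entry was weak, with a −log10 q of 0.257. In replicate 2 both genes had a summit, with a signal of 17.7 each, and in replicate 1 only sls-2.10 had one. The convergent neighbours sls-2.2 and sls-2.3, 456 bp apart, were 97.3% identical. Of these sls-2.2 was in the IDR list, while sls-2.3 had no summit within reach, its nearest pooled summit lying 290 bp downstream. The divergent neighbours sls-2.15 and sls-2.14, 486 bp apart in the same intron, were 92.9% identical, and the former had a signal of 49.2 while the latter had no summit within reach, its nearest peak lying 458 bp downstream. The tandem genes sls-2.7 and sls-2.6, 2627 bp apart and 87.7% identical, differed in the same way. Elsewhere copies were alike: sls-2.5 and sls-2.18 (92.6%) both had a weak summit, and sls-2.12 had none, like its relatives sls-2.13 (96.4%) and sls-2.17 (93.6%).

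**Figure D4:**
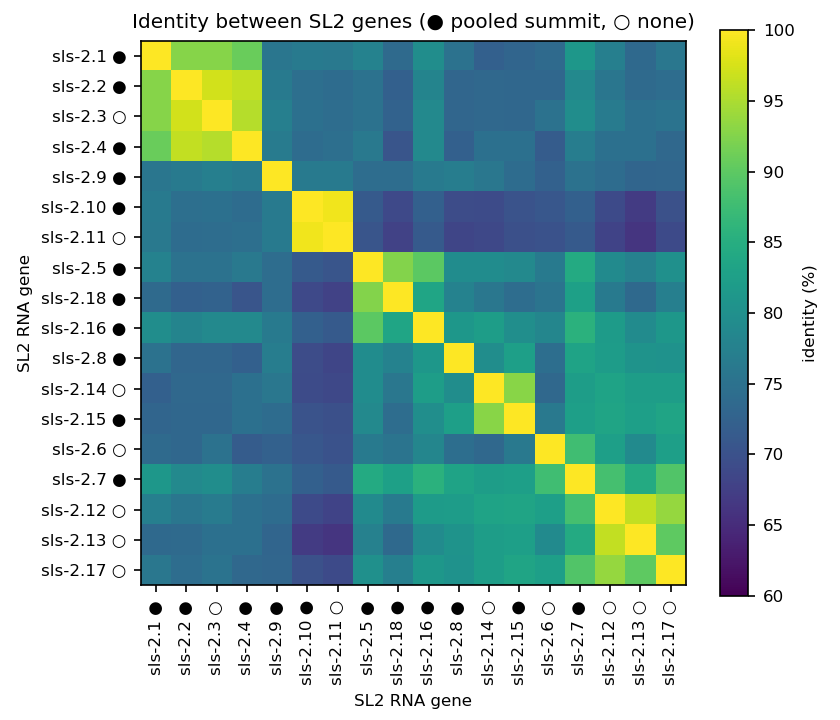
Percent identity of each pair of the 18 SL2 RNA genes (colour scale), with genes on both axes marked for a pooled summit. The pairs sls-2.10 with sls-2.11 (99.1%) and sls-2.2 with sls-2.3 (97.3%) join a gene that has a pooled summit within 200 bp with 1 that has none within that reach. In replicate 2 both sls-2.10 and sls-2.11 had a summit.

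The SL1 genes lie in 1 tandem repeat of 16205 bp at V:17115903-17132107, with 12 SL1 genes, 11 on the minus strand and 1 on the plus strand, and 14 5S rRNA genes on the plus strand. The median step from 1 SL1 gene to the next was 976 bp. The 12 genes had 2 distinct sequences: 10 copies named sls-1.10, of 98 bp and identical, and 2 named sls-1.1, of 68 bp, which lack the leader. In the repeat there were 0 summits in the pooled list, 0 in the IDR list, 1 in replicate 1 and 0 in replicate 2. The mean density of peaks over the nuclear genome would place 1.08, 0.0372, 3.2 and 3.65 there. The replicate 1 summit came from a peak at V:17129309-17129744 with a signal of 12.5, rank 18227 of 19792, 33 bp from a 5S gene and 324 bp from an SL1 gene. The nearest pooled summit lay 19307 to 27954 bp from the SL1 genes, so no SL1 gene has a signal to report.

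The repeat is also where short reads cannot be placed on 1 copy. Of the 36-base words within 200 bp of an SL1 gene, a median of 0.0% occurred at a single place in the nuclear genome, and the highest value, for the plus-strand copy, was 22.5%. For 50-base words the highest was 29.4%. For SL2 genes the median was 90.6%, with a range of 60.4% to 100%, and it was 80.9% for other snRNA genes, 88.6% for tRNA genes and 7.6% for 5S genes. The sources used here do not say how reads that match several places were treated. The low SL1 and 5S values moved with the lack of peaks, and their part in it was not tested. Among SL2 genes the median was 92.2% for the 11 with a pooled summit, with a range of 82.6% to 100%, and 86.9% for the 7 without, with a range of 60.4% to 100%. For other snRNA genes the medians were 80.2% with a pooled summit and 81.5% without, and for tRNA genes 88.6% and 88.3%.

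**Figure D5:**
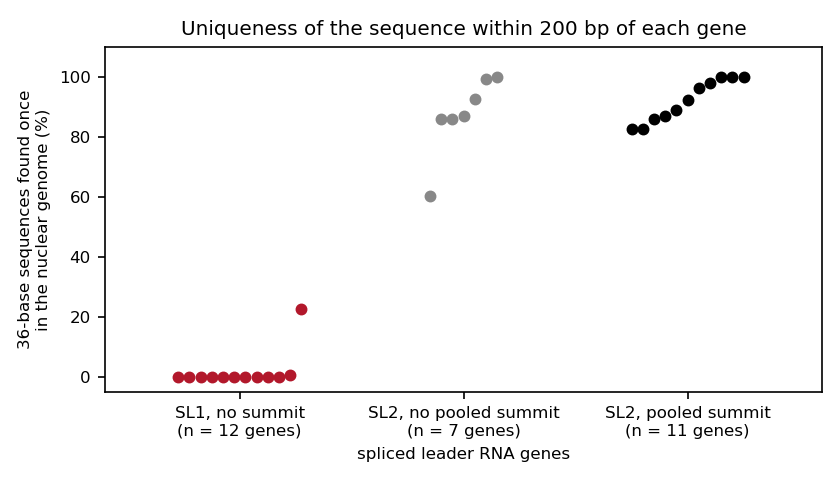
Percent of 36-base words within 200 bp of a gene that occur at a single place in the nuclear genome (vertical axis), 1 point per gene, for SL1 genes and for SL2 genes without and with a pooled summit. SL1 points lie between 0 and 22.5%, and SL2 points with a summit, from 82.6% to 100%, overlap with those without, from 60.4% to 100%.

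A shared upstream word was found in the promoter region of a subset of SL2 genes. In the window from 100 to 21 bases before the 5′ end, on the gene's strand, the words most shared among SL2 genes were AACCCGCG and ACCCGCGA, which overlap in all but their end bases. Each was in the same 6 SL2 genes (33.3%), namely sls-2.5, sls-2.7, sls-2.14, sls-2.15, sls-2.16 and sls-2.18, and the first base of AACCCGCG was at -59 in all 6. It was in 0 SL1 genes, in 5.05% of other snRNA genes and in 0.0768% of all nuclear genes. Of these 6 genes 5 had a pooled summit, as did 11 of all 18 SL2 genes and 12.1% of all nuclear genes. None of the 5 was in the IDR list, and their −log10 q ran from 0.0794 to 0.911. The SL2 genes of the IDR list, sls-2.1, sls-2.2, sls-2.4 and sls-2.8, lacked AACCCGCG. The words were selected as the most shared among these genes, so their share in SL2 is a description.

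Other shared words overlapped this one or lay nearer to the gene. CGGAACCC, at -62, was in sls-2.7, sls-2.8, sls-2.14, sls-2.15 and sls-2.16 (27.8% of SL2 genes) and in 26.3% of other snRNA genes, and of these 5 only sls-2.8 lacked AACCCGCG. CGAAACCC, also at -62, was in sls-2.5, sls-2.12, sls-2.13, sls-2.17 and sls-2.18, of which 2 had a pooled summit and 3 had none. TGTCGGTA began at -48 or -47 in 5 SL2 genes, with 18.2% of other snRNA genes and 0.096% of all genes holding it. The near copies sls-2.10 and sls-2.11 carry the same word there, as the windows printed above show. They differ in the pooled and replicate 1 lists but not in replicate 2. The IDR gene sls-2.1, the gene sls-2.3 and the SL1 gene printed above held none of these words.

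The Sm site AATTTTTGG was in 13 of 18 SL2 genes (72.2%), in 14.1% of other snRNA genes and in 0.94% of nuclear genes of the same length range. It was in 7 of the 11 SL2 genes with a pooled summit (63.6%) and in 6 of the 7 without (85.7%). The core ATTTTTG was in the same share of SL2 genes (72.2%) and in 59 of 99 other snRNA genes (59.6%), so most of that class holds it too. The shorter AATTTTGG was in the 12 SL1 genes and in 3 SL2 genes. Neither form was found in sls-2.2 and sls-2.18, both of which had a summit.

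The E-box CANNTG, which reads alike on both strands, was not more frequent at SL2 summits than elsewhere. Within 50 bp of the pooled summit it was present at 2 of 11 SL2 genes (18.2%) and at 2174 of all 6661 nuclear pooled summits (32.6%). The 2 genes were sls-2.15, with 2 copies of CAGCTG, and sls-2.16, with CACTTG. From 250 bp before to 50 bp after the 5′ end an E-box was in 11 of 18 SL2 genes (61.1%), 8 of 12 SL1 genes (66.7%) and 67.0% of all nuclear genes. Among SL2 genes it was in 54.5% of those with a pooled summit and 71.4% of those without.

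Genes for the proteins that make and use spliced leader RNAs had peaks at about the background rate. A list of 25 genes held the proteins of the spliced leader particle (sna-1, sna-2, sut-1), subunits of SNAPc, Sm proteins, cap-binding proteins, cleavage factors and splice site factors, and 24 of them were matched in the annotation. In the pooled list 1 of 24 (4.17%) had a summit from 1000 bp before to 200 bp after its 5′ end, against 9.03% of 19973 protein-coding genes. The count was 0 with a window from 500 bp upstream and 5 with one from 2000 bp upstream to 500 bp downstream. No share of all coding genes is given for these other windows, so their counts cannot be set against a background. The gene counted with 1000 bp upstream was snr-4, which encodes an Sm protein. It had a pooled signal of 33.8, rank 2038, and a summit at -641 bp from its 5′ end. Its replicate signals were 22.7 and 11.5 (mean 17.1 ± 7.94, SD, n = 2). In the IDR list 0 of 24 had one, against 0.365% of coding genes. The replicate 1 list held 7 of 24 (29.2%, against 23.4% of coding genes) and the replicate 2 list 6 (25.0%, against 25.8%), so these shares were near the background. Both replicates had a summit at snr-3, snr-4 and cpf-1, and none of the 4 lists had one at sna-1, sna-2 or snpc-4, the last a SNAPc subunit.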

How the data were processed

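ChIP-seq of GFP-tagged HLH-12 in whole young adult animals was read from the peak lists deposited by the authors for build ce11, as 1 list per replicate (n = 2), 1 pooled relaxed list and 1 IDR list. Lists of the same study in ce10 coordinates were not used. The signal value of each peak and its −log10 q-value are as deposited by the authors, and the signal was used to describe and rank peaks within a list. The sources used here do not state the aligner, the peak caller, their settings or the scaling of the signal. Read depth is unknown, so no counting interval is given.

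Genes came from Ensembl release 115 and sequences from the RefSeq genome, both of WBcel235. A gene was counted where a summit lay within 200 bp of its nearest base, and its strongest peak was kept. The assignment was tested on simulated data first. Identity came from global alignment with Biopython 1.88 (match 1, mismatch -1, gap opening -2, gap extension -1). Python 3.11.15, numpy 2.4.6, scipy 1.17.1 and matplotlib 3.10.9 were used. The replicates are labelled as biological replicates, and with 1 group there is no contrast and no p-value. The genes named were those with an IDR summit, the strongest 6 SL2 genes, the SL2 genes with no pooled summit and pathway genes with a pooled promoter summit. Other SL2 genes were named to account for every member. The members and lists were chosen with earlier results of these data known. Alternatives were another reach, the 5′ end alone, peak overlap, stronger peaks, each replicate left out and other promoter windows.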

Additional observations from a re-analysis of the deposited data

How the results depend on the processing

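Of 57 alternative values, 8 moved: a count by more than 1.5 times, or the median signal by more than the median replicate SD of 2.32. The other 49 stayed within these bounds, which are wide for small counts. All 24 alternatives for SL1 counts gave 0. Another reach, overlap or stronger peaks could not have changed these counts, which were for the pooled list, the IDR list and both replicates together. In the replicate 1 list alone a summit lay 324 bp from an SL1 gene, which a reach of 500 bp would have counted. The nearest summit to an SL1 gene lay 19307 bp away in the pooled list and 5246 bp away in replicate 2. These zeros therefore do not measure how stable the result is. The pooled SL2 count of 11 ranged from 8 (reach of 100 bp) to 13 (500 bp). With 1 replicate left out it was 9 in each case, among as many of the strongest peaks as the pooled list held. The full lists gave 10 in replicate 1 and 11 in replicate 2. Below that cut lay sls-2.18 in replicate 1 (rank 6925) and sls-2.18 and sls-2.9 in replicate 2 (ranks 9350 and 16591). The count of 9 in both replicate lists ranged from 6 (100 bp, or the 5′ end alone) to 12 (500 bp). The SL2 count in the IDR list fell from 4 to 2 with peaks at or above the median signal. The median pooled SL2 signal of 45.2 was 42.6 with 100 bp, 49.2 with 500 bp and 39.96 with summits within 200 bp of the 5′ end. In the full list of the other replicate the median was 19.9 without replicate 1 and 30.5 without replicate 2. Both are on the scale of single-replicate lists, which differs by construction. The pathway count of 1 became 0 with 500 bp upstream and 5 with 2000 bp upstream and 500 bp downstream. For these windows no share of all coding genes is given beside the counts. The cause of the other changes was not tested. Leaving out summits nearer to another small RNA gene, an alternative chosen after seeing the data, gave 10 SL2 genes in the pooled list and 4 in the IDR list. The median SL1 signal has no value, since no SL1 gene had a summit.

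No paired analysis was possible because there is 1 group of 2 replicates and no comparison between groups. Without read depth, signal below the authors' thresholds cannot be read for genes with no summit.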

Other observations

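The 10 SmY RNA genes, short nematode RNAs that also bind Sm proteins, were read by the same rule. A summit was found at 1 of 10 in the pooled list, 0 in the IDR list, 2 in replicate 1 and 2 in replicate 2. The shares of all nuclear genes were 12.1%, 0.998%, 26.6% and 28.8% in the same order, and the SmY counts were near these. Among nuclear genes in the length range of the spliced leader genes the shares were 26.6%, 8.93%, 34.2% and 32.6%. The SmY counts lay below these, with only 10 genes and no test. The pooled summit was at smy-10, with a signal of 29.4.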
